A study of Homo sapiens with 6 samples.

Results

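Binding of estrogen receptor α (ERα) was examined at 8 genes for transcription factors of basal and mesenchymal cells, TP63, SNAI1, SNAI2, TWIST1, ZEB1, ZEB2, SOX9 and SOX10. The genes were chosen by name. A deposited peak was assigned to a gene when its summit lay in the gene's GRCh38 span or within 50 kb of it, and overlapping peaks of the 6 libraries were joined into regions. This gave 122 of the 175206 regions of the series, and 43 of the 122 had their summit inside the span of the gene.

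The libraries came from chromatin immunoprecipitation with the anti-ERα antibody D8H8 in MDA-MB-453, an established human breast cancer line that is ERα-negative and carries androgen receptor. Its lines inducibly expressed wild-type (WT), Y537S or K303R ERα, and each was profiled after 2 days with 2 µg/mL doxycycline alone or with 1 nM estradiol (E2), so that doxycycline was shared by all 6 groups. Y537S changes the ligand-binding domain and is known to be active in the absence of hormone. K303R changes the hinge and is known for sensitivity to low hormone. The medium held 10% fetal bovine serum, and the labels do not say that it was stripped of hormone, so "without E2" means only that none was added. Chromatin of 2 plates was used per library, each group has 1 library, and the labels do not say whether a line was a clone. All measurements are of bound DNA, so neither the transcripts of the 8 genes nor the markers of the cell type could be checked. Receptor, line and culture cannot be told apart in any comparison between receptors. The peak names of the Y537S lists also carry another date-like tag than those of WT and K303R, so this tag cannot be told apart from the Y537S line either.

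TP63 encodes p63, the member of the p53 family that maintains basal epithelial cells. SNAI1, SNAI2, TWIST1, ZEB1 and ZEB2 encode repressors that bind E-boxes in promoters such as that of E-cadherin and drive the change from epithelial to mesenchymal form, while SOX9 and SOX10 mark progenitor, neural crest and myoepithelial programmes. ERα acts in luminal breast cells, where it binds estrogen response elements, mostly at distal enhancers that forkhead and GATA factors open.

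The RefSeq promoter table holds 3 of the 8 genes, TP63, ZEB1 and ZEB2, and of the starts of these 3 genes only starts of ZEB1 were covered by a region. Each window was the 250 bases before a start, on the strand of the gene, from RefSeq (GRCh38.p14). The ZEB1 window at chr10:31318167-31318416 (plus strand) is shown because the region chr10:31318129-31319026 contains all of it, and that of TP63 at chr3:189631139-189631388 (plus strand) because a region listed only with K303R lay 1383 bp from its start. Capitals mark a half-site of the estrogen response element (TGACC) and an E-box (CAGGTG).
ZEB1: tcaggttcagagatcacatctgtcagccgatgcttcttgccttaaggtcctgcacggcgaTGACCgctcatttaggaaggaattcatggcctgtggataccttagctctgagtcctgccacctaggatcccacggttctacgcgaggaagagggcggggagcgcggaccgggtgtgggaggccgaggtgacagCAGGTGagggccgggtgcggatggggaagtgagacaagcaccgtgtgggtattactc
TP63: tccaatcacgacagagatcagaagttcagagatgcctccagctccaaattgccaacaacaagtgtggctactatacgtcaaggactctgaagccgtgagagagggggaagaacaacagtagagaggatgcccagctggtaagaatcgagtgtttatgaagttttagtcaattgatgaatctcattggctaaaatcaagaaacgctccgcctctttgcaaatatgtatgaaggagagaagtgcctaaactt
The ZEB1 half-site began 190 bases before the start and the E-box 57 bases before it. The half-site GGTCA or TGACC was present in 32.6% of all 35116 such windows and CAGGTG or CACCTG in 17.5%. Searched on both strands, the full element, GGTCA and TGACC with 3 bases between them (0.0399% of all windows), the AP-1 site TGANTCA (6.57%) and the forkhead site TGTTTAC or GTAAACA (2.98%) had no match in the 9 windows of TP63, ZEB1 and ZEB2. The region at the ZEB1 start was weak. The fragments at its summit, 275 bp past the start, numbered 16 with WT, 18 with WT and E2, 14 with Y537S, 15 with Y537S and E2, 15 with K303R and 12 with K303R and E2. These counts span 12 to 18 with no receptor standing apart.

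The fragments at each summit were recovered from the fold enrichment and −log10 p of the authors' lists, and stand for the height of binding. They were not divided by the local background, unlike the authors' fold. ERα-bound regions were dense at SOX10 and SNAI1 and sparse at ZEB1 and ZEB2. The 6 libraries, in the order WT, WT with E2, Y537S, Y537S with E2, K303R and K303R with E2, listed 94, 82, 84, 74, 81 and 79 peaks at the 8 genes, of 106186 to 125850 peaks in each list. Per 100 kb of window, the median over the libraries was 14.7 peaks at SOX10, 10.9 at SNAI1, 6.64 at SOX9, 6.62 at TP63, 6.26 at SNAI2, 3.82 at TWIST1, 2.33 at ZEB2 and 1.28 at ZEB1. Over all protein-coding genes the medians of the 6 libraries ran from 4.69 to 5.28. In every library SOX10 had a higher rate than 94.1 to 98.4% of protein-coding genes and SNAI1 than 86.1 to 94.9%, whereas ZEB1 exceeded only 10.4 to 16.2%. At the 50 kb limit, the outermost TP63 region, 47797 bp from the span, had a mean of 204 fragments and the next one outside, at 50833 bp, a mean of 52. The protein-coding gene nearest to that outermost region was P3H2, at 11655 bp. P3H2 was also nearest to another well-covered TP63 region, at 19036 bp. Assignment follows the window and not the nearest gene. The outermost SNAI1 region, at 49954 bp, had a mean of 60.7 and the next outside, at 54004 bp, a mean of 9.

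**Figure D1:**
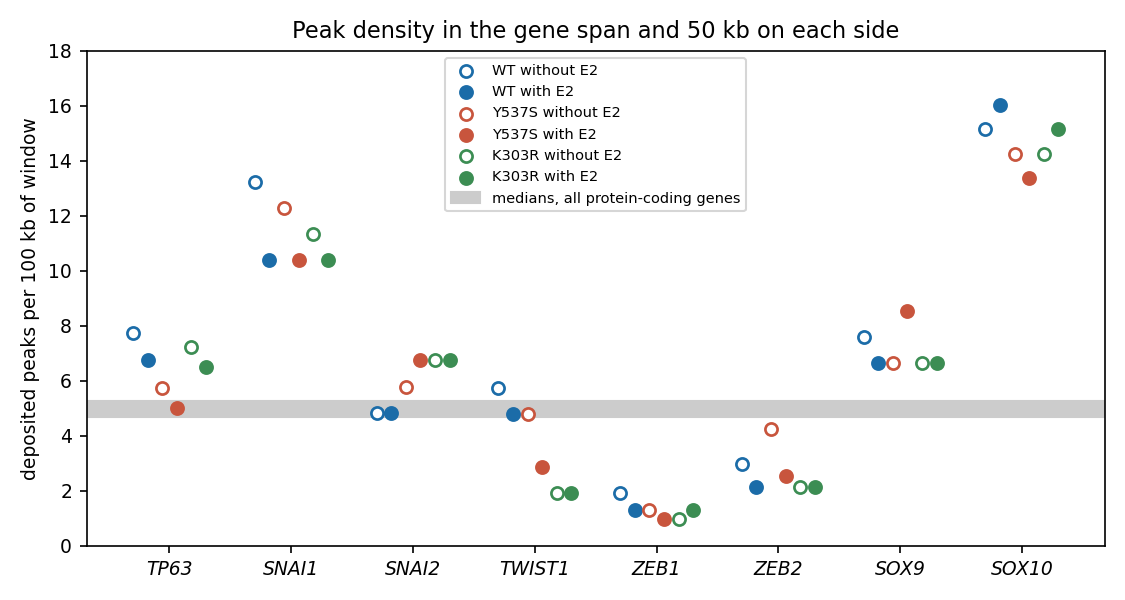
Deposited ERα peaks per 100 kb of the gene span and 50 kb on each side (vertical axis) at the 8 genes (horizontal axis). Each point is 1 library, open without and filled with E2, and the grey band spans the 6 medians over all protein-coding genes. SOX10 and SNAI1 lie above the band, and ZEB1 and ZEB2 below it, in all 6 libraries.

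The height of the strongest region followed another order than the density. TP63, of intermediate density, had a higher best summit than 93.9 to 98.7% of protein-coding genes, close to SOX10 with 92.8 to 99.2%, ahead of SNAI1 with 83.9 to 92.6%, and ZEB2 exceeded 16.9 to 32.2%. A strong region was defined as 1 of the 10000 peaks with the highest −log10 p of a library. TP63, SNAI1 and SOX10 had at least 1 in all 6 libraries, TP63 with 6 or 7 in each. Neither best summits nor strong regions were adjusted for window length, which was 401 kb at TP63, 106 kb at SNAI1 and 112 kb at SOX10. SOX9 had one in 5 libraries and none in Y537S with E2. SNAI2 had one only in the Y537S libraries and ZEB1 only in WT with E2, and TWIST1 and ZEB2 had none. In total 4, 5, 5, 4, 4 and 4 of the 8 genes held a strong region, or 50 to 62.5%, beside 39.2 to 41.7% of all protein-coding genes.

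**Figure D2:**
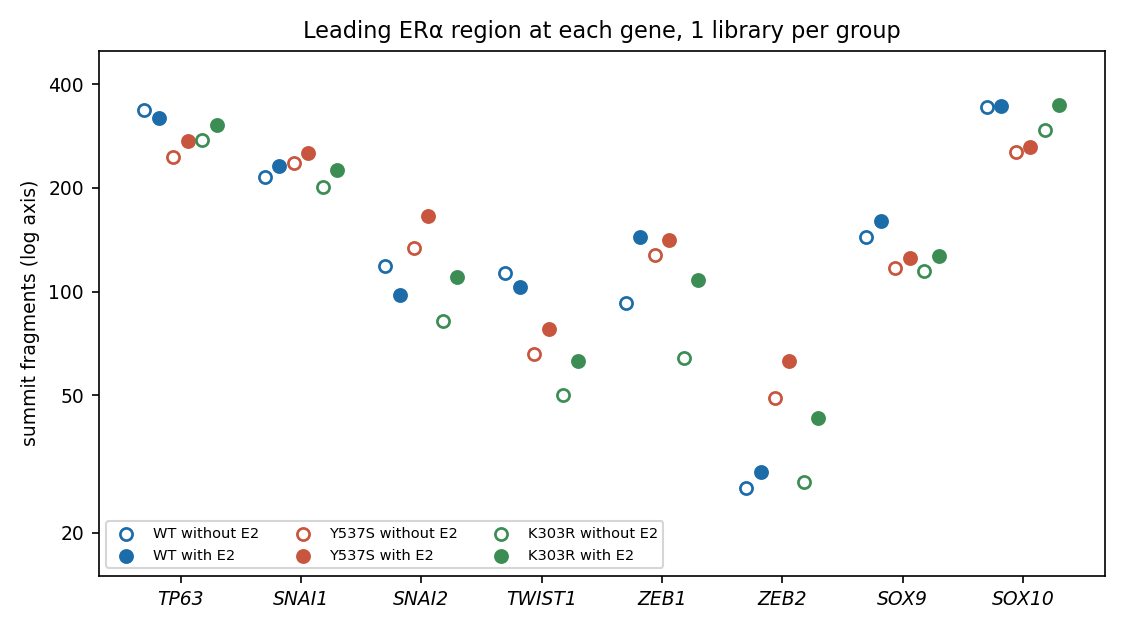
Summit fragments (log axis) at the region with the highest mean at each of the 8 genes. Each point is 1 library, open without and filled with E2. TP63 and SOX10 hold the tallest regions, near 300 fragments, and ZEB2 the lowest, with 27 to 63.

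Ratios between libraries were taken at well-covered regions, those listed in all 6 libraries with a mean of at least 50 fragments. These were 28 of the 122, of 33626 in the series: 8 at TP63, 9 at SOX10, 4 each at SNAI1 and SOX9, 1 each at SNAI2, TWIST1 and ZEB1, and none at ZEB2. The 94 regions not well covered had means of 6 to 82.5 fragments and were described without a call. Each ratio was centred on the genome-wide median ratio of the 2 libraries. A region was called when it passed 1.5-fold and the exact interval of the ratio from counting error, set at an error rate of 0.1%, left out 1. A call compares 2 libraries and not 2 conditions, since the spread between cultures was not measured, and intervals given with ratios are 95% and cover counting error only. In all, 8 of the 28 regions were called in at least 1 of the 9 comparisons and 20 in none. The matching share over all 33626 regions was not computed, so these counts have no background beside them. The 9 comparisons share libraries.

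TP63, the p63 gene, had 45 regions, of which 8 lay before its span, 30 within it and 7 after it, in order of coordinate. The leading region, at chr3:189842506-189843477 inside the span and 211463 bp from the nearest RefSeq start in the promoter table, had 336 fragments with WT and 320 with WT and E2. It had 246 with Y537S and 274 with Y537S and E2, and 275 with K303R and 305 with K303R and E2. By −log10 p it ranked 171, 264, 1241, 1373, 315 and 366 within these 6 lists. It was lower in both Y537S libraries than in both WT libraries, with ratios of 0.771 (0.651 to 0.911) without E2 and 0.814 (0.690 to 0.960) with E2, neither of which was called.

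Neighbouring regions before the TP63 span differed in how much their fragments varied with the receptor. The outer one, at chr3:189563908-189564487, had its summit 32510 bp before the span. It gave 187 fragments with WT and 165 with WT and E2. With Y537S it gave 66, and 67 with E2. With K303R it gave 234, and 212 with E2. In fragments the 3 receptors did not overlap, and K303R stood highest and Y537S lowest with and without E2. Local background there was 14.5 and 12.9 fragments with WT, 9.52 and 9.01 with Y537S and 18.1 and 16.1 with K303R. The authors' fold over it was 12.1 and 12.0 with WT, 6.37 and 6.79 with Y537S and 12.3 and 12.5 with K303R. By fold, K303R was close to WT and Y537S was still lowest. The ratio of fragments of Y537S to WT was 0.372 (0.276 to 0.495) without E2 and 0.386 (0.286 to 0.516) with E2, both called lower. That of K303R to Y537S was 4.62 (3.50 to 6.16) and 3.76 (2.84 to 5.02), both called higher, and that of K303R to WT was 1.66 (1.37 to 2.03), called higher, and 1.41 (1.14 to 1.74), not called. When the ratios were centred on the regions within 5 Mb, which sets a region against its own neighbourhood, Y537S to WT was 0.403 and 0.419 and K303R to Y537S 4.33 and 3.72, and the calls were the same. The inner region, chosen after its values were seen, at chr3:189567928-189568562 and 28545 bp before the span, gave 208, 186, 194, 177, 205 and 220 fragments, with Y537S to WT at 0.982 (0.803 to 1.20) without E2 and 0.905 (0.732 to 1.12) with E2. In fragments it showed no such order of the receptors. The authors' fold there was 11.8 and 12.0 with WT, 17.3 and 16.3 with Y537S and 9.68 and 11.5 with K303R. By fold, Y537S was thus highest at the inner region. Local background there was 16.7 and 14.5 fragments with WT, 10.3 and 9.92 with Y537S and 20.3 and 18.2 with K303R.

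Some further TP63 regions near that outer one were lower in or missing from the Y537S lists, and others were not. Those named here were chosen after their values were seen and are not well covered. One, at chr3:189582085-189582654, had 66 and 56 fragments with WT, 17 and 9 with Y537S, and 44 and 45 with K303R, without and with E2. The ratio of Y537S to WT was 0.271 (0.149 to 0.468) and 0.153 (0.0664 to 0.311). Another, at chr3:189572326-189572815, had 41 and 44 with WT and 43 and 40 with K303R and was listed in neither Y537S library. On the other side of the outer region, chr3:189554415-189554797 had 18 and 21 with WT, 26 and 27 with Y537S and 10 with K303R and E2. It was not listed in K303R without E2, and its ratio of Y537S to WT was 1.52 (0.802 to 2.94) and 1.22 (0.666 to 2.27). Of the 6 regions at the 8 genes that were listed in the other 4 libraries and in neither Y537S library, 5 were at TP63. This pattern covered 4.92% of the 122 regions and 2.11% of all 175206. The 5 at TP63 were not all near the outer region. They included chr3:189722152-189722657 inside the span and chr3:189909580-189910282 after it. A peak that is not listed fell under a threshold and may still hold reads.

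K303R had TP63 regions of its own in the lists. The region at chr3:189629797-189630220, 1383 bp before the RefSeq start of TP63 at position 189631389, had 69 fragments with K303R and 53 with K303R and E2 and was listed in no other library. A region at chr3:189573149-189573462 had 32 and 26 and was likewise listed only with K303R. At the 8 genes, 6 regions (4.92%, against 1.51% of all regions) were listed in both K303R libraries only, 2 of them at TP63, 2 at SNAI2 and 1 each at SNAI1 and SOX10. These regions, too, were chosen after their values were seen.

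**Figure D3:**
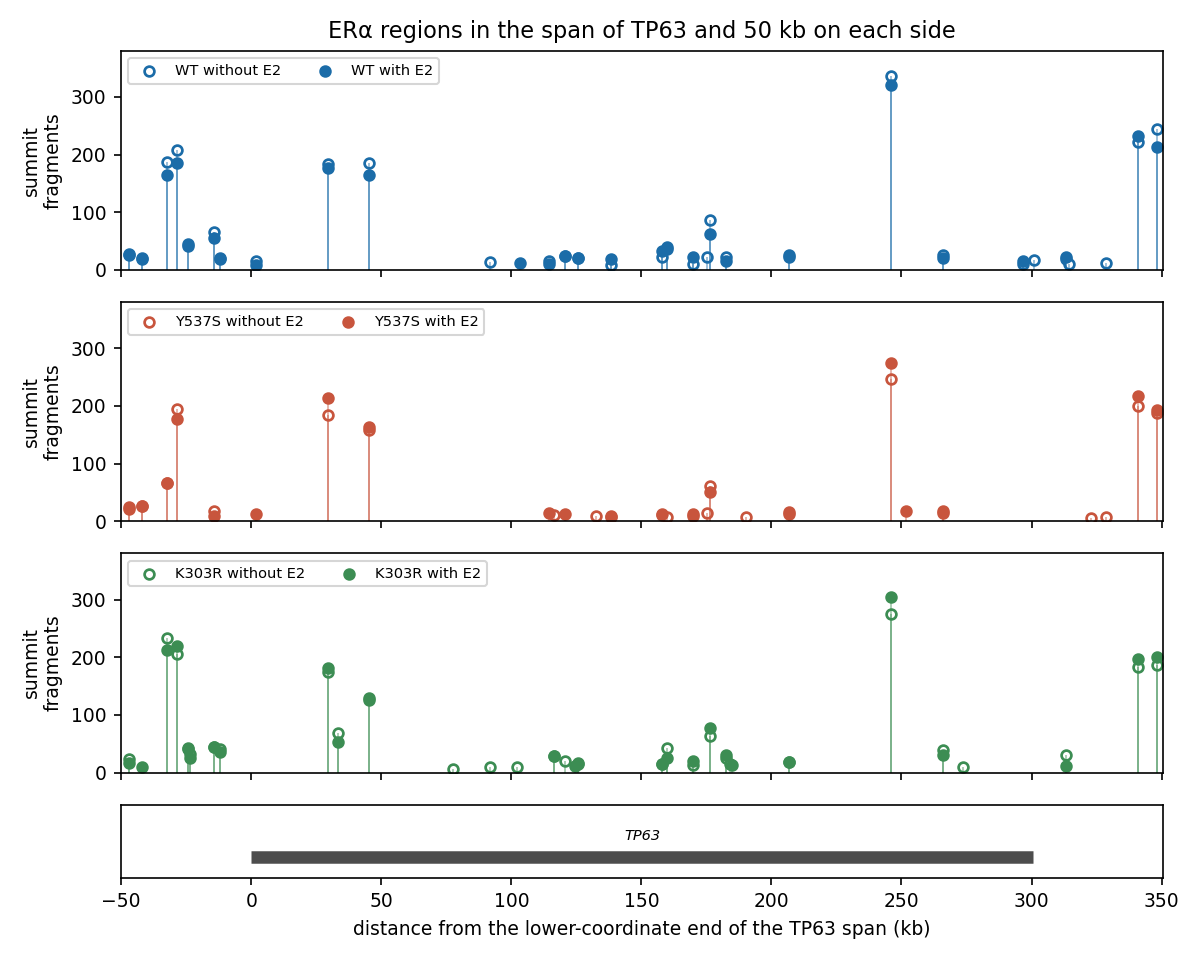
Summit fragments (vertical axis) of the ERα regions by distance in kb from the lower-coordinate end of the TP63 span (horizontal axis), with 1 panel per receptor and the span as a bar. Points are single libraries, open without and filled with E2. The region about 32 kb before the span is lowest with Y537S, at 66 and 67 fragments, while its neighbour stands between 177 and 220 in all 6 libraries.

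SNAI1, which encodes the zinc-finger repressor Snail, had 17 regions. The leading one, at chr20:49981836-49982792, had its summit 750 bp before the lower-coordinate end of the SNAI1 span. It gave 215 and 232 fragments with WT, 237 and 252 with Y537S and 201 and 225 with K303R, without and with E2. It was among the strong regions of every library, and its 9 ratios ran from 0.928 to 1.24 with no call. A far region, at chr20:50027525-50028212, gave 51 fragments with WT, 31 with WT and E2, 66 and 57 with Y537S and 65 and 74 with K303R. With E2 its ratio of K303R to WT was 2.62 (1.70 to 4.12), called higher, and 2.35 when centred within 5 Mb. The authors' fold with E2 differed less, at 16.7 with K303R and 13.0 with WT. The WT library with E2 was the lowest of the 6 there, and the ratio of WT with E2 to WT without was 0.600 (0.371 to 0.956), not called. A region at chr20:49979142-49979435, chosen after its values were seen, was listed only in Y537S with E2, with 54 fragments.

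SNAI2, which encodes the related repressor Slug, had 10 regions. Its leading region had its summit 637 bp past the higher-coordinate end of the SNAI2 span, in the lncRNA gene LOC107986942. It gave 119 fragments with WT, 98 with WT and E2, 134 with Y537S, 166 with Y537S and E2, 82 with K303R and 110 with K303R and E2. Y537S with E2 was the highest of the 6 in fragments, and its ratio to WT with E2 was 1.61 (1.25 to 2.09), called higher, and 1.68 when centred within 5 Mb. The authors' fold over local background was 18.1 in WT with E2 and 18.4 in Y537S with E2. It was highest in WT without E2, at 19.0. Without E2 the ratio of Y537S to WT was 1.19 (0.919 to 1.53), not called. The ratio of K303R to Y537S was 0.797 (0.598 to 1.06) without E2 and 0.787 (0.613 to 1.01) with E2, not called, but was called lower, at 0.506 and 0.662, when libraries were scaled by their lowest local background.

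TWIST1, which encodes a basic helix-loop-helix factor of mesoderm, had 6 regions, and the number of listed peaks was 6 and 5 with WT, 5 and 3 with Y537S and 2 and 2 with K303R. The leading region, at chr7:19079834-19080497 and 32769 bp before the lower-coordinate end of the span, gave 113 and 103 fragments with WT, 66 and 78 with Y537S and 50 and 63 with K303R, without and with E2. Both WT libraries were higher than the other 4. The ratio of K303R to WT was 0.588 (0.413 to 0.827) without E2 and 0.671 (0.482 to 0.926) with E2, and that of Y537S to WT was 0.615 (0.447 to 0.841) and 0.720 (0.530 to 0.976). None was called, although that of K303R without E2 was called, at 0.448, when scaled by the lowest local background. Centred within 5 Mb, the ratios of Y537S to WT were 0.834 and 0.927, nearer to 1, and those of K303R were 0.591 and 0.725.

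ZEB1 and ZEB2 encode zinc-finger homeobox repressors of epithelial genes, and both had few and mostly weak regions. ZEB1 had 7, among them that over its start. Its leading region, at chr10:31578402-31579171, lay 48987 bp past the higher-coordinate end of the span, just inside the 50 kb limit, with a mean of 113 fragments. The protein-coding gene nearest to it was LOC124906892, at 24071 bp. The next region outward, at 53090 bp, had a mean of 73.8. The leading region gave 93 fragments with WT and 144 with WT and E2, 128 and 141 with Y537S, and 64 and 108 with K303R. The ratio with E2 to without was 1.53 (1.17 to 2.01) with WT, 1.40 (1.02 to 1.94) with K303R and 0.981 (0.766 to 1.26) with Y537S, and no ratio was called. The ratio with WT was called when centred within 5 Mb, at 1.56, and when scaled by the lowest local background, at 1.62. Without E2, the ratio of Y537S to WT was 1.45 (1.10 to 1.91), and with E2 it was 0.931 (0.733 to 1.18). Scaled by the lowest local background, Y537S to WT without E2 was called higher at 1.69, the ratio with E2 to without in K303R was called higher at 1.80, and K303R to Y537S without E2 was called lower at 0.414, from 0.651 (0.475 to 0.886). The difference between receptors in their response to E2 was not tested.

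At ZEB2, which had 9 regions and no well-covered one, the tallest region lay inside the span at chr2:144480992-144481569. It gave 27 and 30 fragments with WT, 49 and 63 with Y537S and 28 and 43 with K303R. Y537S was the highest receptor with and without E2, at ratios to WT of 1.91 (1.17 to 3.18) without E2 and 2.00 (1.27 to 3.20) with E2, which were not open to a call. A second intragenic region, at chr2:144444204-144444733 and chosen after its values were seen, had 29 fragments with Y537S and 60 with Y537S and E2, 9 with WT and E2, and was not listed in the other 3 libraries.

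SOX9, which encodes a factor of progenitor and cartilage cells, had 9 regions, and none of its 4 well-covered regions was called in any comparison. The leading region, at chr17:72165665-72166570 and 39899 bp past the higher-coordinate end of the span, gave 144 and 160 fragments with WT, 117 and 125 with Y537S and 115 and 127 with K303R. Both WT libraries were the highest in fragments before centring. Without E2 the genome-wide median of K303R to WT was 0.753 before centring, and the centred ratio of K303R to WT at this region was above 1. The lowest ratio to WT was 0.743 (0.583 to 0.945), with Y537S and E2. The well-covered region nearest to the gene, 301 bp past the span and chosen after its values were seen, gave 98 and 79 with WT, 74 and 68 with Y537S and 62 and 78 with K303R.

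SOX10, the neural crest factor, had 19 regions and held 9 of the 28 well-covered ones. It held 5 of the 8 that were called in at least 1 comparison. The window is gene-rich, and 15 of its 19 summits lay in the span of POLR2F, which encodes an RNA polymerase subunit and overlaps SOX10, and 3 in that of MICALL1. The assignment to SOX10 is therefore by distance only. The region at chr22:37953173-37954102 covered RefSeq starts of POLR2F and of C22orf23 and was weak, with 15 and 18 fragments with WT, 20 and 29 with Y537S and 9 and 12 with K303R, without and with E2. The leading region, at chr22:37999207-38000025 and 15036 bp past the higher-coordinate end of the SOX10 span, gave 344 and 345 fragments with WT, 254 and 262 with Y537S and 295 and 349 with K303R. Y537S was the lowest receptor, and the ratio of K303R to Y537S was 1.51 (1.27 to 1.80) without E2 and 1.58 (1.34 to 1.86) with E2, both called higher. The first of these turned to 0.961 (0.810 to 1.14) when libraries were scaled by their lowest local background in place of the median ratio. Centred within 5 Mb, both ratios, at 1.42 and 1.45, were under 1.5-fold.

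A neighbouring SOX10 region, at chr22:37991438-37992090, had the opposite order of WT and Y537S in fragments. It gave 105 and 120 fragments with WT, 176 and 191 with Y537S, and 93 and 166 with K303R. The authors' fold over local background differed less, at 14.0 and 13.7 with WT, 14.6 and 14.9 with Y537S and 11.6 and 14.4 with K303R. In fragments, Y537S exceeded WT 1.76-fold (1.38 to 2.27) without E2 and 1.51-fold (1.20 to 1.92) with E2, and K303R exceeded WT 1.52-fold (1.19 to 1.93) with E2, all called. Centred within 5 Mb, the first was 1.63 and still called, and the others, at 1.47 and 1.32, were not. At chr22:37929618-37930001, with 63 and 48 with WT, 95 and 117 with Y537S and 74 and 90 with K303R, both mutants were called higher than WT with E2, at 2.32 (1.64 to 3.31) for Y537S and 2.06 (1.43 to 2.98) for K303R. The authors' fold there differed less, at 3.67 and 3.09 with WT, 4.32 and 4.43 with Y537S and 3.63 and 4.13 with K303R. Local background with E2 was 14.9 fragments with WT, 25.6 with Y537S and 21.1 with K303R. Another region, at chr22:37986832-37987230, gave 39 and 48 with WT, 41 and 65 with Y537S and 43 and 86 with K303R, and the ratio of K303R to WT with E2 was 1.96 (1.36 to 2.86), called higher. By the authors' fold these 2 libraries stood at 7.46 with K303R and 5.59 with WT. The last called region, at chr22:37932655-37934375, gave 151 and 120 with WT, 130 and 153 with Y537S and 162 and 164 with K303R, and K303R exceeded Y537S 1.62-fold (1.28 to 2.06) without E2, called higher, but only 1.03-fold and not called when scaled by the lowest local background. Adjacent to it, and chosen after its values were seen, the region at chr22:37932091-37932629 had 55 and 52 with WT, 95 and 128 with Y537S and was listed in neither K303R library.

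**Figure D4:**
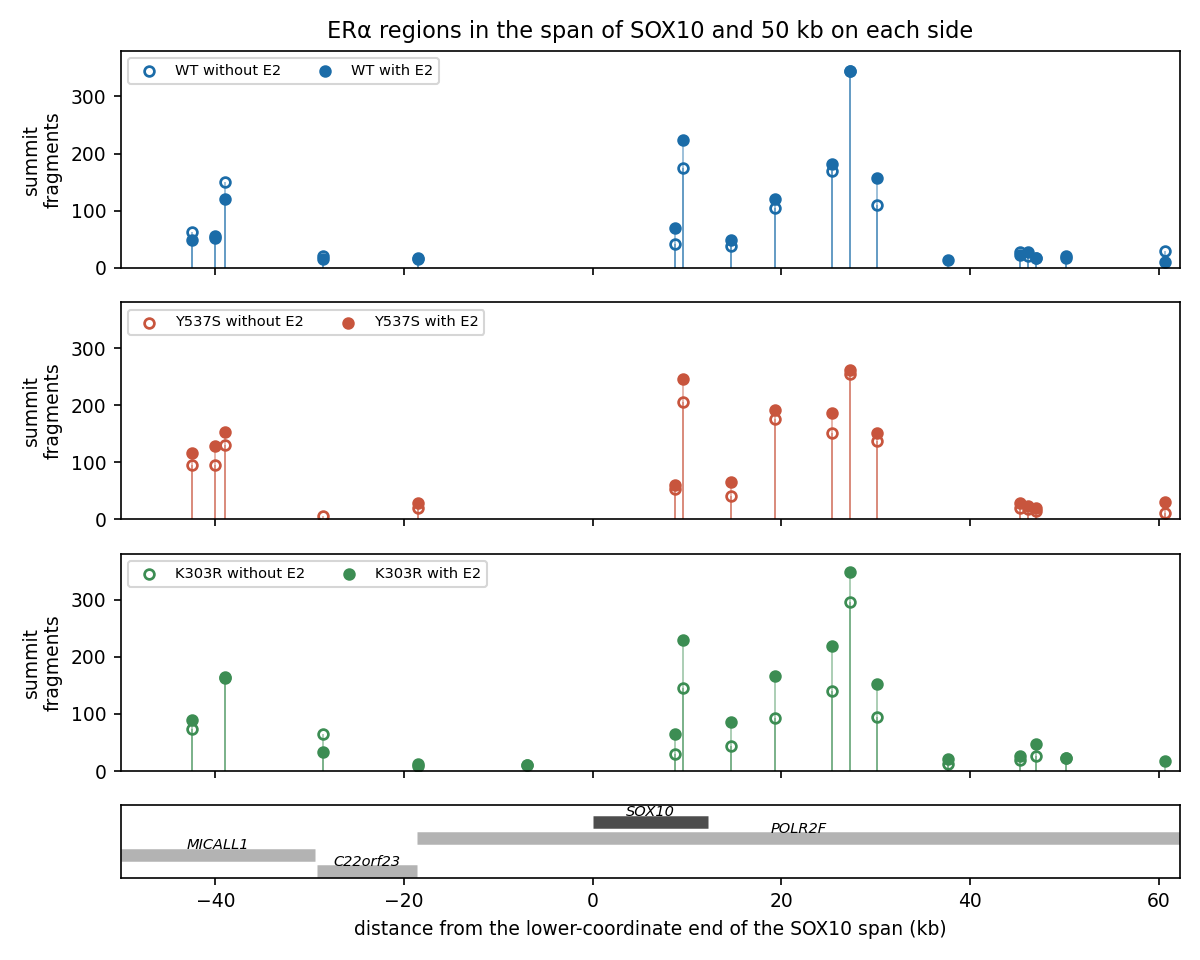
Summit fragments (vertical axis) of the ERα regions by distance in kb from the lower-coordinate end of the SOX10 span (horizontal axis), with 1 panel per receptor and the spans of SOX10 and 3 overlapping or neighbouring genes as bars. Points are single libraries, open without and filled with E2. The region at about 19 kb has 105 and 120 fragments with WT and 176 and 191 with Y537S, and the tallest, at about 27 kb, has 344 and 345 with WT and 254 and 262 with Y537S.

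Addition of E2 gave no called region at the 8 genes in any of the 3 receptors, with 0 of 28 each. Over the whole set of 33626 regions the calls were 1.66% higher and 0.607% lower with WT, 0.0922% and 0.0743% with Y537S, and 2.48% and 0.803% with K303R, so that a count of 0 among 28 was near the background. The median ratio over the 28 regions was 0.970 with WT (range 0.600 to 1.66), 0.977 with Y537S (0.730 to 1.41) and 0.963 with K303R (0.751 to 1.83), beside 1 over all regions by construction. At TP63, 7 of the 8 regions were below 1 with each receptor, at medians of 0.882 with WT, 0.913 with Y537S and 0.889 with K303R, but with K303R 7 of the 8 were above 1 when scaled by the lowest local background. At SOX10 the medians were 1.13 with WT, 1.05 with Y537S and 1.31 with K303R. The highest ratios with WT and K303R were at the region chr22:37980907-37981254, inside the SOX10 span and chosen after its values were seen, which gave 41 and 69 fragments with WT, 53 and 61 with Y537S and 29 and 64 with K303R. Its ratio was 1.66 (1.11 to 2.51) with WT and 1.83 (1.16 to 2.94) with K303R, neither called. With the 3 receptors taken as pairs in 1 fit (limma on log2 fragments with receptor and E2 as terms, 2 residual degrees of freedom, Benjamini-Hochberg adjustment), 0 of the 28 regions and 0% of all 33626 were called. In that fit 3 of the 28 (10.7%) and 11.2% of all had an unadjusted p under 0.05, and the smallest adjusted p was 0.41. The SOX10 region chr22:37986832-37987230 had the lowest p of the 28, at a log2 difference of 0.49 (SE 0.13, adjusted p = 0.41 by limma), higher with E2 in 3 of 3 receptors. Scaled by the lowest local background, the K303R comparison called 7 of the 28 regions higher, 6 at SOX10 and the leading one of ZEB1, and none lower, beside 14.0% of all regions higher. That scaling moves the median of all regions by 0.36 on the log2 scale, and which scaling is right was not tested.

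Between receptors, calls at the 8 genes were few and mostly higher in the mutants. For Y537S against WT without E2, 1 region was called higher and 1 lower (background 9.60% and 7.53%), and with E2, 3 higher and 1 lower (7.81% and 6.82%). Scaled by the lowest local background, the comparison without E2 gave 4 higher and 1 lower, beside 17.3% and 3.44% of all regions. For K303R against WT, 1 was called higher without E2 (4.52% higher and 6.84% lower in all) and 4 with E2 (5.18% and 9.05%), and none lower. For K303R against Y537S, 3 were called higher without E2 (12.7% and 12.0%) and 2 with E2 (10.3% and 10.7%), and none lower. A single region is 3.57% of the 28, so most of these counts were within a few regions of the background. The widest gaps were in K303R against WT with E2, with 14.3% of the 28 called higher, and in the absence of lower calls for K303R against Y537S. That absence did not hold in other settings: centred within 5 Mb, 2 were called higher and 1 lower without E2, the latter the SOX10 region chr22:37991438-37992090 at 0.647, and lowest-background scaling gave 1 higher and 1 lower with E2, the latter the SNAI2 region. That scaling called 4.97% of all regions higher and 20.7% lower with E2. Of the 4 regions called higher in K303R against WT with E2, 3 were at SOX10, and only that at SNAI1 was called when centred within 5 Mb. The median ratios over the 28 were 0.964 and 0.920 for Y537S to WT, 1.13 and 1.12 for K303R to WT and 1.22 and 1.22 for K303R to Y537S, without and with E2.

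The direction of K303R against Y537S depended on the scaling. Relative to the lowest local background, the median of all regions moved by -0.65 on the log2 scale without E2 and -0.25 with E2. Without E2, 1 of the 28 regions was then called higher and 6 lower, beside 2.27% and 44.7% of all regions. The region 32510 bp before TP63 kept its direction, at 2.93 without E2 and 3.16 with E2. Of K303R to WT without E2, where that scaling moved the median by -0.39, the same TP63 region stood at 1.27 in place of 1.66 and was not called.

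**Figure D5:**
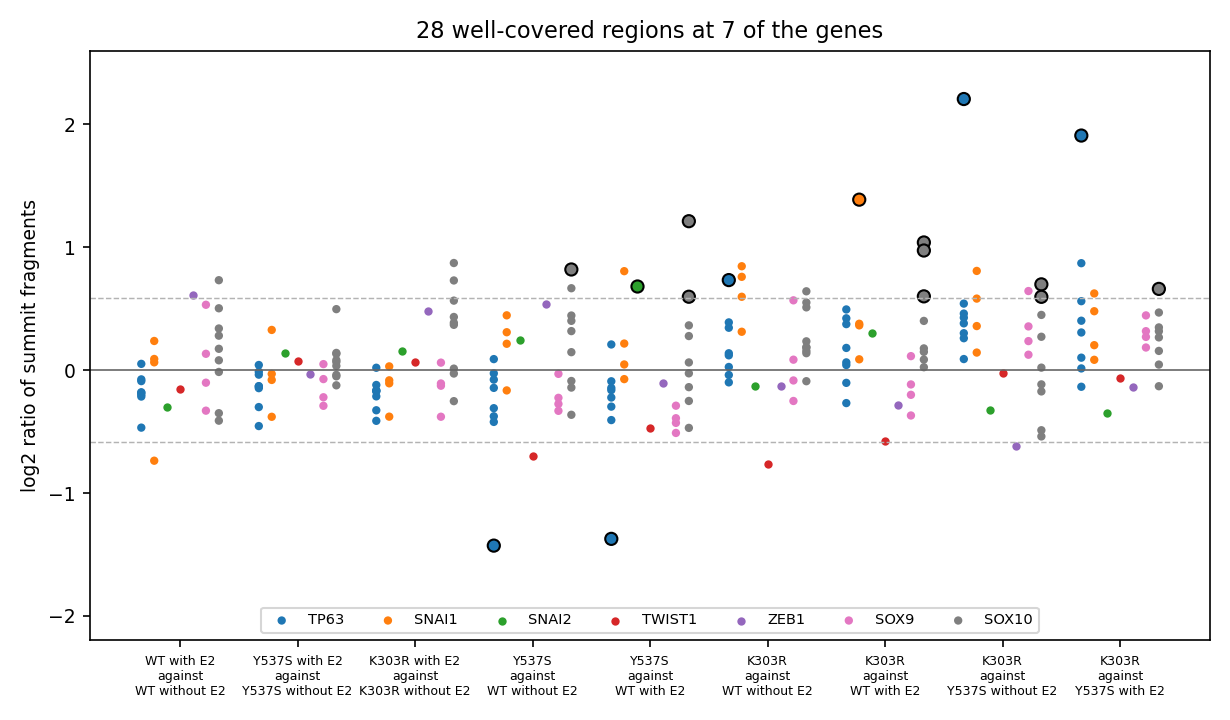
Log2 ratios of summit fragments (vertical axis) at the 28 well-covered regions in the 9 comparisons (horizontal axis), coloured by gene. Ringed points are called regions, and dashed lines mark 1.5-fold. No point is ringed in the 3 comparisons of E2, and the outlying TP63 point is the region 32510 bp before the span, at ratios of 0.372 and 0.386 for Y537S to WT and 4.62 and 3.76 for K303R to Y537S.

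Other genes of these programmes, and luminal transcription factors, were set beside the 8. Among 28 further basal and mesenchymal genes, such as keratins, laminins and collagens, 12 to 15 held a strong region per library, with the tallest regions at COL1A1, LAMB3 and CD44. Among 22 related transcription factors, 6 to 10 did, led by FOXC1, SOX8 and TP73, and among 16 luminal factors 6 to 12 did, led by ELF3, XBP1 and GRHL2. In K303R against Y537S without E2, the 84 well-covered regions of the luminal list gave 29 higher and 1 lower calls at a median ratio of 1.42, or 34.5% and 1.19%, beside 12.7% and 12.0% of all regions. The 92 of the further basal and mesenchymal list gave 14 and 8 (15.2% and 8.70%) at 1.12, and the 55 of the related factors 6 and 10 (10.9% and 18.2%) at 1.03. The 8 genes, with 3 higher and none lower, had a median of 1.22, between those of the luminal and the further basal list. In Y537S against WT without E2 the luminal list had 5 higher and 13 lower (5.95% and 15.5%), the further basal and mesenchymal list 1 and 6 (1.09% and 6.52%) and the related factors 2 and 5 (3.64% and 9.09%), beside 9.60% and 7.53% of all regions. In K303R against WT with E2, 14.3% of the regions of the 8 genes were called higher, and 13 of the luminal list (15.5%), with 2 lower (2.38%). The further basal and mesenchymal list had 4 higher and 3 lower (4.35% and 3.26%). The related factors had 4 and 5 (7.27% and 9.09%), beside 5.18% and 9.05% of all regions. With E2 against without in WT, the further basal and mesenchymal list had 0 higher and 2 lower and the other lists none. In Y537S the 3 lists had none. In K303R the further basal and mesenchymal list had 3 higher, the related factors 2 higher and the luminal list 2 lower. The differences between lists were not tested.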

How the data were processed

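ERα ChIP-seq was deposited as 1 peak list for each of 6 libraries, 1 per group. Tools named in the submitters' processing notes are MACS2, Bowtie2, Picard, SAMtools and bedtools, with the build hg38. Versions, control, threshold and total reads were not given in the sources used here. For each peak the authors' lists give a fold (a ratio to local background), −log10 p- and q-values, a score (not used) and a summit. Summit fragments were recovered from the deposited fold and −log10 p, with a pseudocount of 1 and a Poisson p matched to 0.01%, and the recovery was tested on simulated data. Peaks overlapping by at least 1 bp were joined. The fewest fragments listed in the windows were 6 to 9 per library, which limits weak regions. The members, gene lists, tests and alternatives were chosen with earlier results of these data known. At each gene the region with the highest mean fragments, every called region and any region over a RefSeq start of the promoter table were named. The regions next to the 50 kb limit were given at TP63, SNAI1 and ZEB1 and not at the other genes. Other named regions are marked. Gene spans are RefSeq GRCh38.p14, without strand or exons, so before and after follow coordinates. Python 3.11.15, numpy 2.4.6, pandas 2.3.3 and scipy 1.17.1 were used. Alternatives were windows of 25 and 100 kb, −log10 q of at least 10, the 5000 or 20000 strongest peaks, ranking by fold, 2 scalings, a minimum of 20 fragments, 2-fold calls, joining of summits within 150 bp and, chosen after seeing the data, centring on each library's median against the geometric mean of the 6, and a fit of E2 with the 3 receptors as pairs (limma 3.58.1, R 4.3.3).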

Additional observations from a re-analysis of the deposited data

How the results depend on the processing

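With 1 library per group, none could be left out. The labels give no replicate numbers to pair by. Taking the 3 receptors as pairs in limma, an alternative chosen after seeing the data, called 0 of the 28 regions with E2. That fit takes 1 shared E2 effect for the 3 receptors and called 0 of all 33626 regions. Its 0 of 28 is therefore no check on the counts of each receptor alone. With windows of 25 kb the peaks at the 8 genes numbered 58, 51, 50, 43, 53 and 48 in the 6 libraries, and with 100 kb 113 in Y537S with E2 and 122 and 121 in K303R without and with E2. A −log10 q of at least 10 left 52 in Y537S and 53 in K303R, both without E2. With the 5000 strongest peaks, 3 genes held a strong region in Y537S without E2. Scaling by the lowest local background called 1 region with E2 in WT, 7 with E2 in K303R, 5 (4 higher, 1 lower) in Y537S against WT without E2 and 7 (1 higher, 6 lower) in K303R against Y537S without E2. Over all regions that scaling called 2.69% higher and 0.235% lower, 14.0% and 0.0387%, 17.3% and 3.44%, and 2.27% and 44.7%, in that order. In K303R against WT without E2 it called 0 higher and 1 lower in place of 1 higher, beside 0.642% and 22.7% of all regions. It turned the SOX10 leading region in K303R against Y537S without E2 to 0.961. With E2 it called 1 higher and 1 lower in K303R against Y537S, in place of 2 higher, beside 4.97% and 20.7% of all regions. Centring within 5 Mb called 2 higher and 1 lower in K303R against Y537S without E2, in place of 3 higher, 1 with E2 in WT and, with E2, 1 each in K303R against WT and K303R against Y537S. The share of all regions called under that centring was not computed. A minimum of 20 fragments, with 41 regions, called 7 (6 higher, 1 lower) in K303R against WT with E2. In K303R against Y537S with E2 it called 6 (5 higher, 1 lower). Of all 59902 regions at that minimum, 4.90% were called higher and 6.98% lower, and 9.37% and 8.45%, in that order. Past 2-fold, 1 and 2 regions were called in Y537S against WT without and with E2, 0 and 2 in K303R against WT, and 1 and 1 in K303R against Y537S. Over all regions the shares higher and lower were 4.73% and 3.79%, and 2.99% and 3.19%, in Y537S against WT. For K303R against WT they were 1.44% and 4.35%, and 1.81% and 5.50%. For K303R against Y537S they were 6.61% and 8.24%, and 4.91% and 6.11%. The cause of these changes was not tested, beyond the wider or narrower windows, fewer or more regions and stricter folds that the settings themselves set. Joining summits within 150 bp, and centring on library medians, an alternative chosen after seeing the data, kept all 9 counts of calls within 1.5 times. Sequencing depth is not known, and the counting intervals widen as fragments fall.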
